A study of Mus musculus with 16 samples.

Results

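Acyl-CoA synthetases join a fatty acid to coenzyme A, and 7 of their genes were examined here in mouse liver: the long-chain synthetase genes Acsl1, Acsl3, Acsl4 and Acsl5 and the medium-chain synthetase genes Acsm1, Acsm3 and Acsm5. A member was taken from the deposited table by its annotated symbol, and of several probe sets the brightest on average over the 16 arrays was used. By this rule 5 of the 7 members, of 30142 genes in all, had a probe set annotated to that gene alone: Acsl4, Acsl5, Acsm1, Acsm3 and Acsm5. Acsl1 and Acsl3 were not analysed here. The 16 arrays of liver RNA fell into 4 groups of 4: Ppara fl/fl after sham operation, Ppara△Hep after sham operation, Ppara fl/fl after partial hepatectomy (PHx, the removal of part of the liver) and Ppara△Hep after PHx. Tissue was collected at 12 h, a time the submitters chose because the remnant liver becomes fatty then. The fl/fl mice, which carry the floxed Ppara gene, are the wild-type controls. In Ppara△Hep mice (△Hep below) PPARα was disrupted in hepatocytes, and other liver cells keep the gene. The labels name neither the Cre driver nor the sex or age of the mice. They also leave unsaid whether the 4 arrays of a group stand for 4 mice, so the p-values reflect array-to-array spread that may be technical. Each title carries its own number, whose meaning is not stated. The sham numbers lie in 1 stretch and the PHx numbers below and above it. Between sham and PHx arrays, whatever the numbers stand for cannot be told apart from the operation, while within the PHx groups the numbers vary.

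A fatty acid is inert until a synthetase attaches coenzyme A to it at the expense of ATP. Long-chain synthetases of the Acsl family sit on the endoplasmic reticulum, on mitochondria and on other membranes, and their products feed both beta-oxidation and the synthesis of triglyceride and phospholipid. Medium-chain synthetases of the Acsm family lie in the mitochondrial matrix, where they activate shorter fatty acids and aromatic acids such as benzoate, which liver then joins to glycine. PPARα is a nuclear receptor that fatty acids activate, and several genes of fatty acid activation and oxidation are among its known targets in liver.

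Values are log2 levels as deposited, and every difference below is on that log2 scale. A level cannot be compared between genes, because each probe set binds with its own strength. Differences carry the standard error (SE) of the limma model over all 16 arrays, and a gene passed where its Benjamini-Hochberg adjusted p over 30142 genes was below 0.05. Ppara itself stood at 6.45 to 7.02 on sham fl/fl, 6.05 to 6.43 on sham △Hep, 5.68 to 7.24 on PHx fl/fl and 4.70 to 6.26 on PHx △Hep arrays. The sham genotypes did not overlap for Ppara while the PHx genotypes did, and the probe set may lie outside the disrupted part. Averaged over both operations, 5 of 13 measured classical PPARα targets passed lower in △Hep livers, where 0.212% of all genes did. The largest differences were -4.32 ± 0.78 for Cyp4a14, -3.38 ± 0.51 for Cyp4a32 and -2.96 ± 0.43 for Cyp4a31 (SE; limma adjusted p = 0.0349, 0.00872 and 0.00651). On average 0 of the 13 passed higher, and after sham 0 passed in either direction. Some targets had higher means in sham △Hep than in sham fl/fl livers, among them Pdk4 (5.79 against 4.34) and Acot1 (5.70 against 4.58). Of 14 hepatocyte markers 12 were measured, and their log2 summed level ran from 14.4 to 14.5 in every group. The arrays of the operations also differed in values outside the members, with an array median over all probe sets of 2.05 ± 0.02 for sham and 2.17 ± 0.02 for PHx (SD, n = 8 each) and an antigenomic background of 1.24 ± 0.03 and 1.01 ± 0.04. A far wider split was that of the 558 chromosome Y probe sets, whose median was 1.81 ± 0.06 on sham and 5.19 ± 0.16 on PHx arrays, from 1.70 to 1.87 against 4.99 to 5.49. The 4 sex-linked genes measured showed no split of that size. Their group means ran from 1.39 to 1.58 for Xist, 4.72 to 4.92 for Uty, 4.96 to 5.31 for Eif2s3y and 3.67 to 4.08 for Kdm5d. What the chromosome Y split reflects was not tested. The part of these array-wide shifts in the changes after PHx was looked at only through the other scalings named below. Those scalings act on all probe sets of an array. They cannot show whether a difference limited to some probe sets, like that of chromosome Y, touches the members.

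The 3 medium-chain genes were lower after PHx in both genotypes, and no change was called for the 2 long-chain genes measured. In fl/fl livers 3 of 5 members passed, all lower, where 20.8% of all genes passed lower and 32.7% passed in either direction. In △Hep livers 3 of 5 passed lower as well, where 17.5% of all genes passed lower and 32.3% in either direction. The share that passed lower was larger among the 13614 genes with a mean of at least 3, where all 5 members lie. Of these, 5962 passed in fl/fl livers, 1154 of them higher, and 5888 in △Hep livers, 1235 of them higher. For each medium-chain gene every PHx array lay below every sham array of its genotype, a pattern that 19.9% of all genes showed in fl/fl and 16.2% in △Hep livers. The median difference over all genes was -0.04 in fl/fl and 0.01 in △Hep livers. The 2 comparisons share no arrays but share the estimate of each gene's spread. The array-wide differences between sham and PHx arrays given above enter both.

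**Figure D1:**
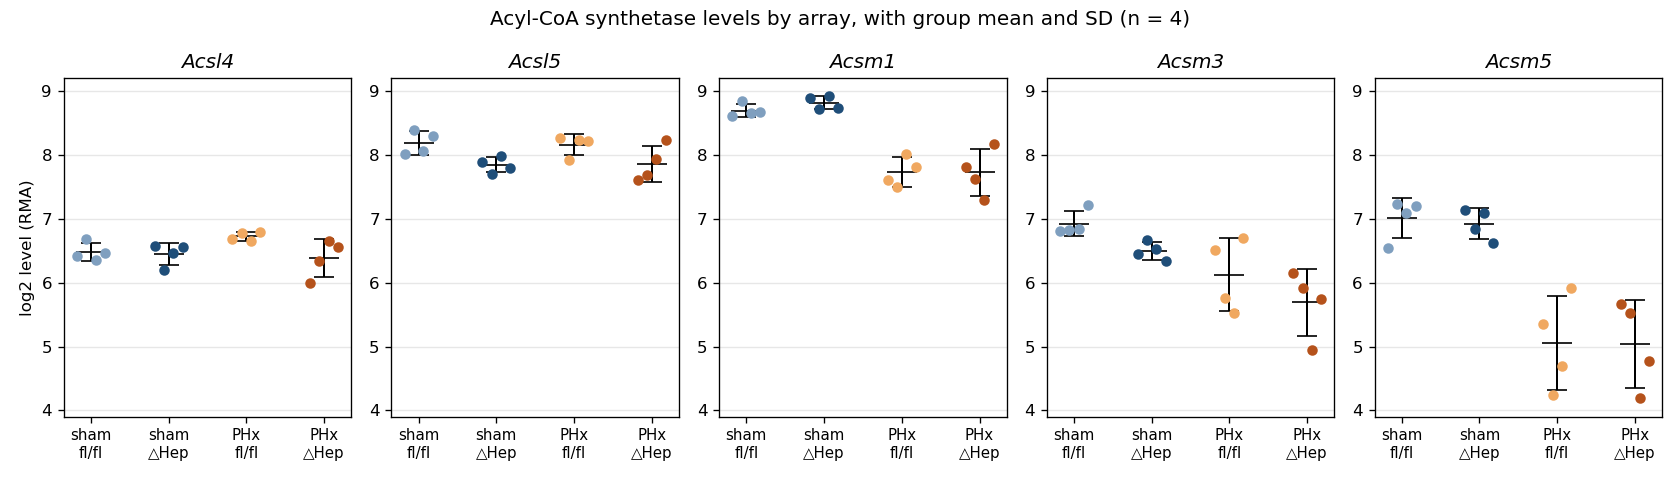
Log2 level of each measured member on each of the 16 arrays, in panels by gene; points are arrays in the order of their numbers, and the black bars give the group mean and SD (n = 4). The 3 Acsm panels step down from the sham to the PHx groups with no overlap within a genotype, while the Acsl4 and Acsl5 points of sham and PHx overlap.

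Acsm5, a mitochondrial medium-chain synthetase, had the largest change of the members. Its level on arrays 1 to 4 was 6.54, 7.23, 7.09 and 7.20 in sham fl/fl livers and 7.15, 6.84, 7.08 and 6.62 in sham △Hep livers. After PHx it was 5.36, 4.25, 4.70 and 5.91 in fl/fl and 5.66, 5.52, 4.20 and 4.77 in △Hep livers. No PHx array reached the lowest sham array of either genotype. The fall in fl/fl livers was -1.96 ± 0.34 (SE; limma adjusted p = 6.50e-04), to 25.7% of the sham level, and 29 of the 30142 genes fell by more. In △Hep livers the fall was -1.88 ± 0.34 (limma adjusted p = 8.00e-04), to 27.1% of sham, and 43 genes fell by more. The SD of Acsm5 was 0.32 and 0.24 in the sham groups but 0.73 and 0.68 in the PHx groups, and 99.2% of all genes had a smaller SD among the PHx fl/fl arrays.

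Acsm1, which activates medium-chain fatty acids and benzoate, had the tightest arrays of the 3. Its levels were 8.61, 8.84, 8.65 and 8.68 in sham fl/fl and 8.89, 8.72, 8.92 and 8.74 in sham △Hep livers. They were 7.61, 7.49, 8.01 and 7.82 in PHx fl/fl and 7.82, 7.62, 7.30 and 8.17 in PHx △Hep livers. Every one of the 8 PHx arrays was below all 8 sham arrays. Acsm1 fell by 0.96 ± 0.15 in fl/fl livers (SE; limma adjusted p = 2.22e-04), to 51.3% of sham, and by 1.09 ± 0.15 in △Hep livers (limma adjusted p = 6.40e-05), to 47.0% of sham. The falls in fl/fl and △Hep livers were larger than the spread of the arrays within any of the 4 groups, whose SDs were 0.10 to 0.37.

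Acsm3, a mitochondrial relative of Acsm1, changed by a smaller amount and with more spread. It stood at 6.81, 6.83, 6.84 and 7.21 in sham fl/fl and at 6.44, 6.67, 6.53 and 6.34 in sham △Hep livers. After PHx it stood at 6.51, 5.76, 5.53 and 6.70 in fl/fl and at 6.15, 5.92, 4.95 and 5.75 in △Hep livers. Sham fl/fl array 4 was the high one of its group, and PHx fl/fl arrays 1 and 4 lay only just below the sham fl/fl range. Acsm3 fell by 0.80 ± 0.26 in fl/fl livers (SE; limma adjusted p = 0.0282) and by 0.80 ± 0.26 in △Hep livers (limma adjusted p = 0.0276), to 57.6% and 57.3% of sham. These calls rested on single arrays and on the scaling. In fl/fl livers the call was lost without sham fl/fl array 3 or 4 (limma adjusted p = 0.0509 and 0.0776), without PHx fl/fl array 2 or 3 (0.0846 and 0.0898), and after cyclic loess (-0.66, 0.0690). In △Hep livers it was lost without sham △Hep array 2 or 3 (0.0682 and 0.0588), without PHx △Hep array 3 (0.0868) and after cyclic loess (-0.64, 0.0816). Acsm1 and Acsm5 passed in both genotypes whichever of the 16 arrays was left out and under all 9 other settings.

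The PHx fl/fl arrays split in the same way for Acsm3 and Acsm5, with arrays 1 and 4 higher than arrays 2 and 3. Acsm1 did not follow that split, since its highest PHx fl/fl arrays were 3 and 4. Ppara stood at 6.97, 6.08, 5.68 and 7.24 on those arrays and Cyp4a14, a fatty acid hydroxylase gene and PPARα target, at 10.5, 8.78, 6.11 and 9.69. Arrays 1 and 4 were the higher ones for both of these genes too. Of the 13 classical PPARα targets measured, the same held for Cyp4a14, Cyp4a31, Cyp4a32, Vnn1, Ehhadh, Slc22a5, Acot1 and Angptl4. It did not hold for Pdk4, Plin2, Fgf21, Cpt1b and Creb3l3, and Pdk4 was lowest on arrays 1 and 4, at 6.53 and 5.82. On PHx △Hep arrays 1 to 4 Cyp4a14 stood at 2.69, 2.27, 5.36 and 6.97, high where Acsm5 was low. The title numbers of PHx △Hep arrays 1 and 2 lie below those of the sham arrays, and the title numbers of arrays 3 and 4 lie above. In the PHx fl/fl group array 1 alone lies below. Whether the numbers bear on these splits was not tested. Over the 16 arrays, the deviations from the group means had a Pearson r of 0.854 between Acsm3 and Acsm5, 0.342 between Acsm1 and Acsm5 and 0.243 between Acsm1 and Acsm3. The r of these deviations with those of Ppara was 0.660 for Acsm3, 0.695 for Acsm5 and -0.14 for Acsm1. These are descriptions over arrays that share their RNA, hybridisation and scaling, and what sets the arrays apart was not tested.

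The 3 medium-chain genes are neighbours on chromosome 7, in the order Acsm5, Acsm2, Acsm1, Acsm4, Thumpd1, Ppp1ccb, Acsm3 and Eri2 among protein-coding genes of RefSeq. Because they changed together, their start regions are shown. Each window is from RefSeq (GRCm38.p6), is written 5′ to 3′ on the gene's own strand, and runs from 250 bases before the annotated start to 50 after it. Capitals mark the letters AGGTCA or TGACCT, the hexamer bound by nuclear receptors read on either strand, and CACGTG, the E-box. Acsm5 lies at chr7:119526015-119526314, Acsm1 at chr7:119617562-119617861 and Acsm3 at chr7:119760673-119760972, all on the + strand.
Acsm5: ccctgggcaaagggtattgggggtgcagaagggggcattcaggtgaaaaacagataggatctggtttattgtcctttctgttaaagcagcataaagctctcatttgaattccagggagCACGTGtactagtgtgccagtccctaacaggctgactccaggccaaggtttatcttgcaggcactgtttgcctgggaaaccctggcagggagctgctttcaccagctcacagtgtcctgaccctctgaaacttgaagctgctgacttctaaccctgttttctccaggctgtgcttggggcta
Acsm1: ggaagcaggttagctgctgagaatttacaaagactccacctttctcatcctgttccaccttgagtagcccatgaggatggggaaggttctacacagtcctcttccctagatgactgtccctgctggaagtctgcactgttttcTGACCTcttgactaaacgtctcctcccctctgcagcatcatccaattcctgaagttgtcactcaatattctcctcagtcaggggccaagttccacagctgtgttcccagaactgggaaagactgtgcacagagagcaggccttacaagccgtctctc
Acsm3: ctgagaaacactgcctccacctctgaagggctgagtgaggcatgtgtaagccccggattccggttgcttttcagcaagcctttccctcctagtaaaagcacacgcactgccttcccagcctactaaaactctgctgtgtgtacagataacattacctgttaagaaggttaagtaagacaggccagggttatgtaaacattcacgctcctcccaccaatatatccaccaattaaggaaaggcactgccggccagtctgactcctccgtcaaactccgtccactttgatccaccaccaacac
Acsm1 held 1 nuclear receptor hexamer, as TGACCT, 107 bases before the start, and Acsm5 held 1 E-box, 132 bases before it. Acsm3 held neither. The hexamer occurred on either strand in 16.3% of the 32851 windows of this length and the E-box in 7.15%. The direct repeat of 2 copies of AGGTCA with 1 base of any kind between them, the kind of element that PPARα binds with its partner RXR, occurred in 0.0396% of windows exactly and in 3.86% with up to 2 mismatches, and in 0 of the 5 members' windows. The C/EBP letters TTGCNNCAA occurred in 2.08% of windows and in 0 of the 5. Both strands were searched throughout, and an exact direct repeat contains the hexamer. A match describes the letters of this window only. The GC content was 51.3% for Acsm5, 50.7% for Acsm1, 53.0% for Acsl5 and 71.7% for Acsl4, against a median of 52.7% over all windows.

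Neighbouring genes did not all move with the medium-chain members. Thumpd1 and Ppp1ccb, which lie between Acsm1 and Acsm3, had PHx differences of 0.08 and 0.02 in fl/fl and 0.13 and -0.03 in △Hep livers, and neither passed. The other medium-chain genes of the block were near the bottom of the scale, with Acsm2 at 1.95 to 2.42 and Acsm4 at 1.80 to 1.92 as group means, so that these arrays could show little change of them. Acsm2 nevertheless passed lower in both genotypes, at -0.26 ± 0.09 and -0.36 ± 0.09 (SE; limma adjusted p = 0.0310 and 0.00550). The call in fl/fl livers was lost without sham fl/fl array 2 or 3, without array 1 or 3 of PHx fl/fl, and with only the fl/fl groups fitted (adjusted p up to 0.0935). The Acsm genes are related in sequence, and whether their probe sets bind one another's transcripts was not tested. Pdilt, a protein disulphide isomerase relative of testis, overlaps Acsm5 in the RefSeq annotation on the opposite strand. It stood at 4.95 ± 0.30 and 4.93 ± 0.42 in sham fl/fl and △Hep livers and at 3.81 ± 0.57 and 3.56 ± 0.54 after PHx (SD, n = 4). Its PHx differences were -1.14 ± 0.30 and -1.37 ± 0.30 (SE; limma adjusted p = 0.00969 and 0.00285), and its levels had an r of 0.920 with those of Acsm5 over the 16 arrays. Whether either probe set reads the other gene's transcript was not tested, since no source used here gives the probes' strand. Eri2 overlaps Acsm3 in the same way and did not follow it, with PHx differences of 0.01 and 0.07 that did not pass.

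For Acsl4, the synthetase that prefers arachidonate and other polyunsaturated fatty acids, no change after PHx was called. Its levels were 6.42, 6.69, 6.35 and 6.47 in sham fl/fl and 6.58, 6.20, 6.47 and 6.56 in sham △Hep livers. After PHx they were 6.69, 6.77, 6.65 and 6.80 in fl/fl and 5.99, 6.34, 6.66 and 6.56 in △Hep livers. The PHx fl/fl arrays were high and close together, with a group SD of 0.07 against 0.30 in PHx △Hep, and they overlapped the sham fl/fl arrays through array 2 of the latter. The PHx difference was 0.24 ± 0.12 in fl/fl livers (95% interval -0.02 to 0.51; limma adjusted p = 0.150) and -0.06 ± 0.12 in △Hep livers (-0.33 to 0.20; 0.739). In fl/fl livers the value passed as higher after cyclic loess (0.38, limma adjusted p = 0.0383) and when only the 8 fl/fl arrays were fitted (0.24, 0.0435). It was 0.07 at the lowest over the other scalings.

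For Acsl5, a long-chain synthetase of liver and intestine, no change after PHx was called either. It stood at 8.01, 8.39, 8.06 and 8.30 in sham fl/fl and at 8.26, 7.92, 8.24 and 8.22 in PHx fl/fl livers. In △Hep livers it stood at 7.90, 7.71, 7.99 and 7.80 after sham and at 7.60, 7.68, 7.93 and 8.23 after PHx. The operations overlapped in each genotype. The PHx difference was -0.03 ± 0.13 in fl/fl livers (SE; 95% interval -0.31 to 0.24; limma adjusted p = 0.878) and 0.01 ± 0.13 in △Hep livers (-0.26 to 0.29; 0.952). The sign turned under other scalings in both genotypes. A second Acsl5 probe set lay low on the scale, with group means of 2.78 to 2.95 and SDs of 0.21 to 0.33.

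The contrast between the chain classes was set out as each array's mean difference from the sham fl/fl level of the same genes, a description with no test because the members were chosen. For the medium-chain genes the shift came to -1.05, -1.71, -1.46 and -0.74 on PHx fl/fl arrays 1 to 4, with a mean of -1.24 ± 0.43, and to a mean of -1.39 ± 0.47 on PHx △Hep arrays, the lowest at -2.06 on array 3 (SD, n = 4). For the long-chain genes the mean shift was 0.11 ± 0.07 on PHx fl/fl and -0.21 ± 0.27 on PHx △Hep arrays (SD, n = 4), and -0.19 ± 0.13 on sham △Hep arrays. Medium-chain minus long-chain came to -1.35 ± 0.37 on PHx fl/fl, -1.18 ± 0.67 on PHx △Hep and 0.06 ± 0.17 on sham △Hep arrays. The long-chain shift in PHx fl/fl livers was -0.0013 with array medians subtracted and -0.11 after quantile normalization, while the medium-chain shift stayed below -1 under every setting tried.

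**Figure D2:**
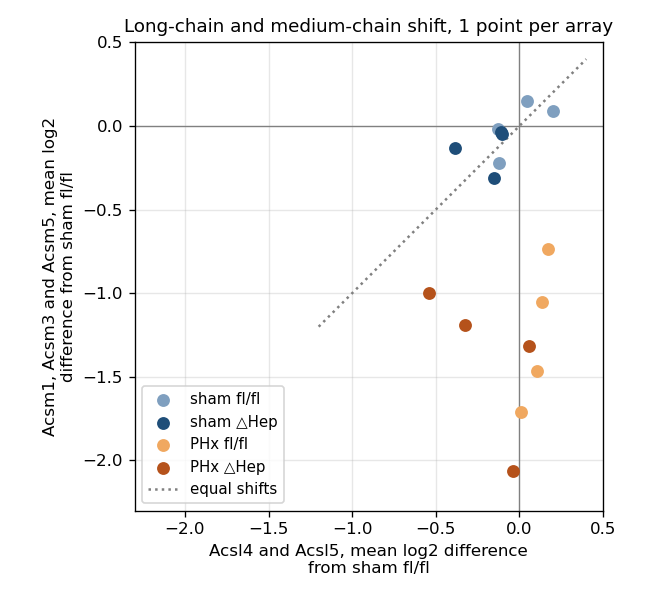
Mean log2 difference from the sham fl/fl mean for the 3 medium-chain genes (vertical axis) against the 2 long-chain genes (horizontal axis), 1 point per array, coloured by group, with a dotted line where both shifts are equal. The 8 PHx arrays lie between -0.74 and -2.06 on the medium-chain axis, below the sham arrays, and their long-chain shifts lie on both sides of 0.

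Loss of hepatocyte PPARα gave no called difference for any member. After sham 0 of 5 members passed, where 0.0133% of all genes passed (limma; 4 genes, against 2792 genes at an unadjusted p under 0.05). After PHx 0 of 5 passed, where 0.143% of all genes did, which is 43 genes, all lower in △Hep livers. Averaged over both operations 0 of 5 passed, where 0.219% did, 64 of the 66 genes being lower. With only the 8 PHx arrays fitted, 0 genes passed in place of the 43.

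After sham and on average, the smallest adjusted p of the 5 measured members was that of Acsl5. Its 4 sham △Hep arrays lay below its 4 sham fl/fl arrays, as they did for 4.43% of all genes. The genotype difference was -0.34 ± 0.13 after sham (SE; 95% interval -0.62 to -0.07; limma adjusted p = 0.467), -0.30 ± 0.13 after PHx (limma adjusted p = 0.634) and -0.32 ± 0.09 averaged (-0.52 to -0.13; limma adjusted p = 0.380). After PHx the genotypes overlapped, with △Hep arrays 3 and 4, at 7.93 and 8.23, within the fl/fl range of 7.92 to 8.26. Acsl5 was lower on average in △Hep livers under all 8 other settings, from -0.34 to -0.11, without passing in any.

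Acsm3 had the same order, with all sham △Hep arrays below all sham fl/fl arrays, but wider intervals. Its difference was -0.43 ± 0.26 after sham (SE; 95% interval -0.98 to 0.12; limma adjusted p = 0.645), -0.43 ± 0.26 after PHx (0.759) and -0.43 ± 0.18 averaged (-0.82 to -0.04; limma adjusted p = 0.788). Its group means thus ran from 6.92 in sham fl/fl through 6.50 in sham △Hep and 6.13 in PHx fl/fl to 5.69 in PHx △Hep livers. Sham △Hep and PHx fl/fl, next to each other in that order, overlapped.

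Acsl4 differed between the genotypes after PHx by -0.34 ± 0.12 (SE; 95% interval -0.60 to -0.07; limma adjusted p = 0.530) and after sham by -0.03 ± 0.12 (limma adjusted p = 0.961). The PHx genotypes overlapped through △Hep array 3. For Acsm1 and Acsm5 the genotype differences were 0.12 ± 0.15 and -0.09 ± 0.34 after sham and -0.01 ± 0.15 and -0.01 ± 0.34 after PHx. Their group means therefore fell into a sham pair and a PHx pair, and within each pair the genotypes overlapped.

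The PHx changes themselves were compared between the genotypes by the interaction term, and 0 of 5 members passed, as did 0% of all genes (limma; 0 of 30142, with 3400 at an unadjusted p under 0.05). The difference of the PHx changes, △Hep minus fl/fl, was -0.31 ± 0.18 for Acsl4 (SE; 95% interval -0.68 to 0.07), 0.04 ± 0.18 for Acsl5, -0.13 ± 0.21 for Acsm1 (-0.57 to 0.32), -0.01 ± 0.37 for Acsm3 (-0.79 to 0.77) and 0.08 ± 0.49 for Acsm5 (-0.96 to 1.11). Neither bound of the intervals for Acsm1 and Acsm5 reached the size of the gene's fall in fl/fl livers, while those for Acsm3 reached almost to the size of its own fall.

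**Figure D3:**
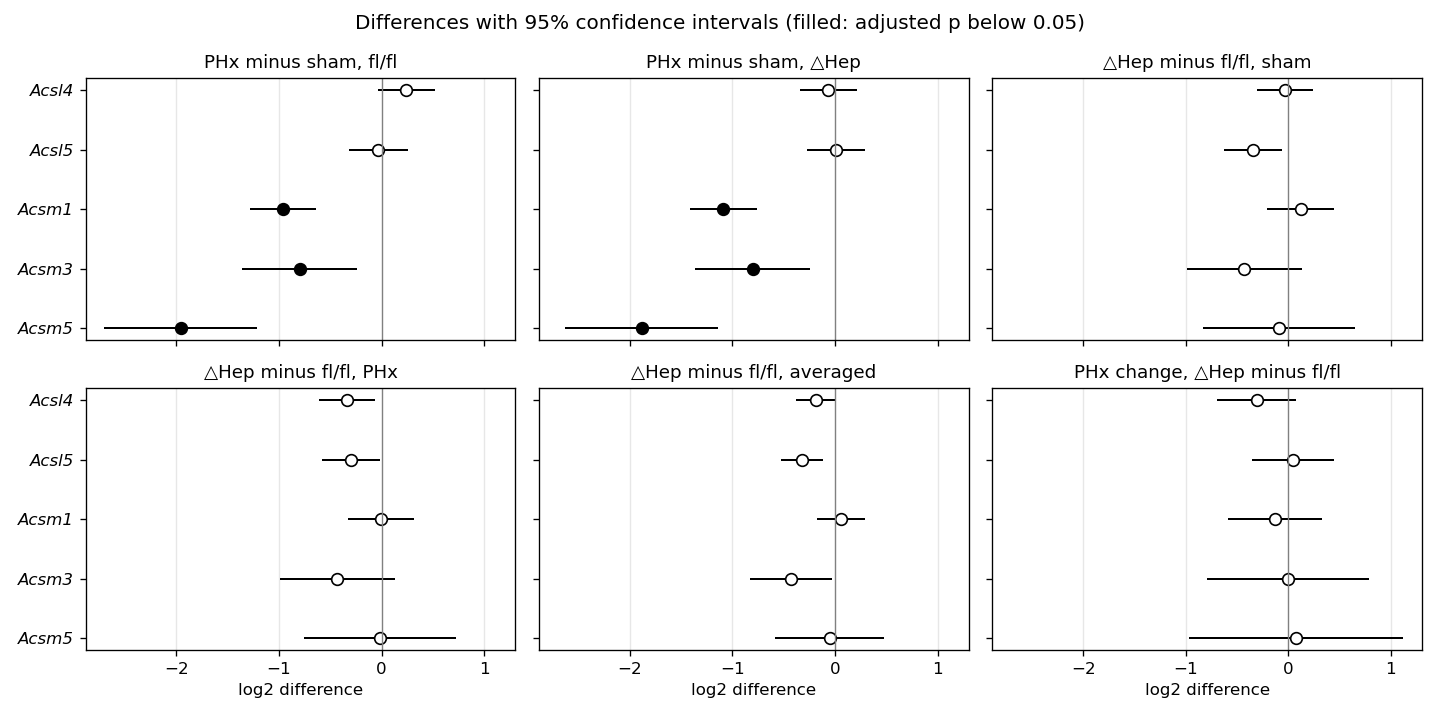
Log2 difference of each member with its 95% interval (horizontal axis) in 6 panels: PHx minus sham in each genotype, △Hep minus fl/fl after each operation and averaged, and the difference of the PHx changes. Filled points passed at adjusted p below 0.05, and these are the 3 Acsm genes in the 2 PHx panels alone.

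Of 18 other acyl-CoA synthetase genes, all measured, 8 passed lower and 1 higher after PHx in fl/fl livers, and 9 lower and 0 higher in △Hep livers. Over all genes 20.8% passed lower and 11.9% higher in fl/fl livers, and 17.5% and 14.8% in △Hep livers. The medians of the 18 were -0.14 and -0.16, against -0.04 and 0.01 over all genes. The counts became 12 lower and 0 higher in each genotype with array medians subtracted, and 12 and 11 lower after quantile normalization. The genes that passed lower in fl/fl livers include some near the bottom of the scale. Acsbg3, Acsl6 and Acsm2 had sham fl/fl means of 1.96, 2.36 and 2.21 and differences of -0.13, -0.16 and -0.26. The antigenomic background was also lower on PHx arrays, at 1.01 against 1.24, and its part in these calls was not tested. Acss2, which activates acetate in the cytosol, stood at 4.98 to 5.64 on sham fl/fl and 3.89 to 4.41 on PHx fl/fl arrays, and it fell by 1.25 ± 0.16 in fl/fl and by 1.31 ± 0.16 in △Hep livers (SE; limma adjusted p = 2.90e-05 and 1.60e-05). Aacs, which activates acetoacetate for lipid synthesis, fell by 1.07 ± 0.16 and 0.96 ± 0.16. Slc27a5, the synthetase of bile acids, fell by 0.56 ± 0.10 and 0.64 ± 0.10. Each of these 3 passed in both genotypes under all 9 other settings and whichever array was left out. Acss1 and Acss3, relatives of Acss2, did not pass, with differences of -0.05 ± 0.05 and -0.22 ± 0.23 in fl/fl and 0.11 ± 0.05 and -0.10 ± 0.23 in △Hep livers. Acss1 lay near the bottom of the scale, with group means of 2.18 to 2.29, so that these arrays could show little change of it. Acss3 also lay low, with group means of 2.07 to 3.04. Its genotype difference, △Hep minus fl/fl, was -0.87 ± 0.23 after sham and -0.81 ± 0.16 averaged over both operations. Neither passed (SE; limma adjusted p = 0.383 and 0.0665).

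Acsf2, a mitochondrial synthetase of medium-chain fatty acids outside the Acsm family, was the 1 related gene that passed between the genotypes after PHx. Its arrays read 7.30, 7.37, 7.22 and 7.16 in sham fl/fl, 7.03, 7.15, 7.44 and 7.16 in sham △Hep, 7.63, 7.55, 7.36 and 7.78 in PHx fl/fl and 6.81, 6.80, 6.73 and 6.99 in PHx △Hep livers. The PHx △Hep arrays were below every array of the other groups. The genotype difference after PHx was -0.75 ± 0.10 (SE; limma adjusted p = 0.00381), and it did not pass with only the 8 PHx arrays fitted (0.250). After PHx Acsf2 was higher by 0.32 ± 0.10 in fl/fl livers (limma adjusted p = 0.0191) and lower by 0.36 ± 0.10 in △Hep livers (limma adjusted p = 0.00994). The rise lost its call with array medians subtracted, after quantile normalization and when array 4 of either fl/fl group was left out, and the fall after cyclic loess. The difference of the PHx changes was -0.68 ± 0.14 and did not pass (limma adjusted p = 0.286).

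**Figure D4:**
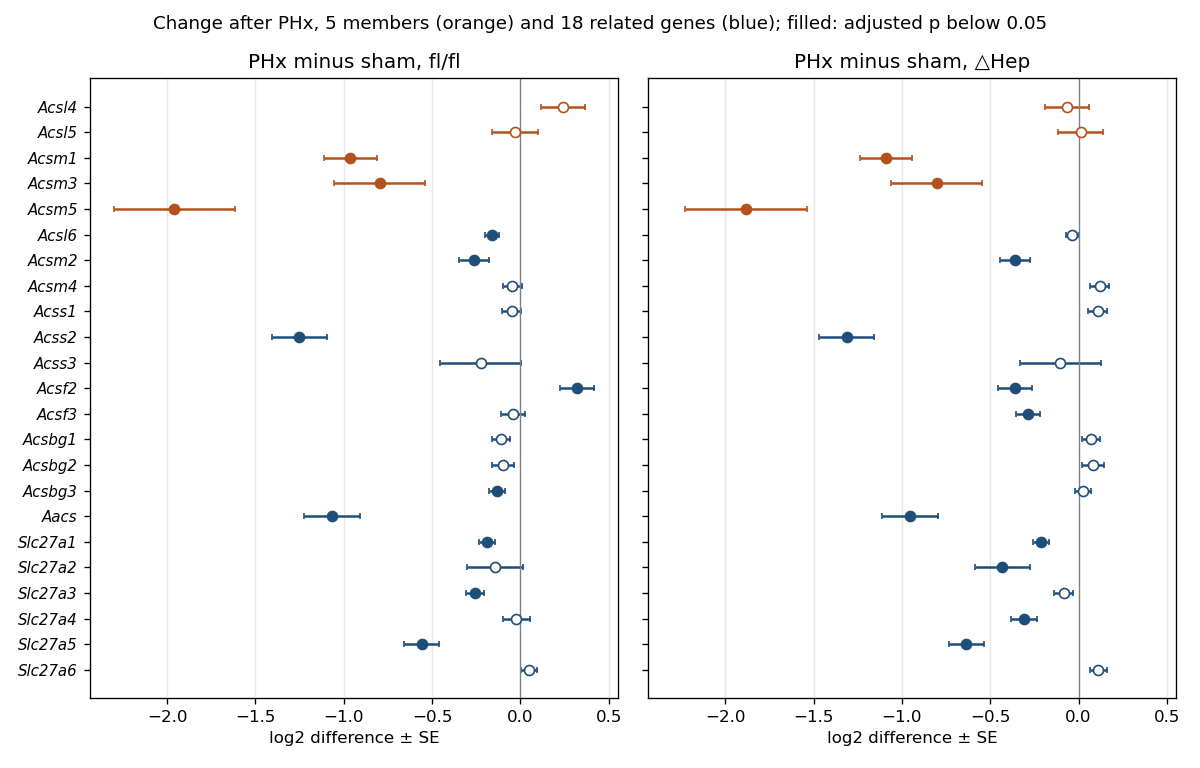
PHx minus sham log2 difference with its SE (horizontal axis) for the 5 members (orange) and the 18 other synthetase genes (blue), fl/fl livers left and △Hep livers right; filled points passed at adjusted p below 0.05. Acsm5 lies farthest to the left in both panels. Acss2, Aacs and Acsm1 follow in that order in fl/fl livers, and Acss2, Acsm1 and Aacs in △Hep livers.

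Of 10 genes of glycine conjugation and glycine metabolism, all measured, 6 passed lower in fl/fl and 7 in △Hep livers, and 0 passed higher. Over all genes 20.8% passed lower in fl/fl and 17.5% in △Hep livers. The share was larger among the 13614 genes with a mean of at least 3, where all of the list but Glyatl3 lie. Of these, 5962 passed in fl/fl livers, 1154 of them higher, and 5888 in △Hep livers, 1235 of them higher. The medians of the list were -0.72 and -0.96. Glycine conjugation takes up the benzoyl-CoA made by medium-chain synthetases, but most of the list belongs to glycine cleavage and to serine and glycine interconversion. Its glycine N-acyltransferase genes and relatives are Glyat, Glyatl3 and Keg1, and Glyatl3 lay near the bottom of the scale, at group means of 0.97 to 1.10. Baat, also on the list, stood at group means of 8.05 to 8.26. Its PHx differences of 0.16 ± 0.10 in fl/fl and 0.12 ± 0.10 in △Hep livers did not pass (SE; limma adjusted p = 0.215 and 0.376). Keg1, a glycine N-acyltransferase relative, had levels of 6.30 to 7.44 on sham fl/fl and 3.04 to 4.88 on PHx fl/fl arrays, and it fell by 3.00 ± 0.44 in fl/fl and 3.28 ± 0.44 in △Hep livers (SE; limma adjusted p = 1.47e-04 and 5.69e-05). Amt, of the glycine cleavage system, fell by 1.19 ± 0.20 and 1.38 ± 0.20. Shmt1, which interconverts serine and glycine, fell by 1.00 ± 0.34 in fl/fl and 1.52 ± 0.34 in △Hep livers (limma adjusted p = 0.0335 and 0.00331). Its fl/fl call was lost without sham fl/fl array 2, 3 or 4, without array 2 or 3 of PHx fl/fl, after cyclic loess and with only the fl/fl groups fitted (adjusted p up to 0.106). Glyat, the glycine N-acyltransferase of benzoyl-CoA, stood at 7.46 ± 0.11 in sham fl/fl and 6.78 ± 0.74 in PHx fl/fl livers (SD, n = 4), a difference of -0.68 ± 0.28 that did not pass (SE; limma adjusted p = 0.0751), and it fell by 1.05 ± 0.28 in △Hep livers (limma adjusted p = 0.00979). Between the genotypes 0 of the 10 passed after either operation.

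Genes of fatty acid oxidation gave mixed counts. Of 17 measured genes of mitochondrial oxidation 3 passed lower and 1 higher after PHx in fl/fl livers, and 10 lower and 0 higher in △Hep livers. The shares over all genes were 20.8% lower and 11.9% higher in fl/fl and 17.5% and 14.8% in △Hep livers. Between the genotypes after PHx 0.143% of all genes passed. Acads, the short-chain acyl-CoA dehydrogenase gene, fell by 0.81 ± 0.11 and 0.93 ± 0.11. Between the genotypes 6 of the 17 were lower in △Hep livers after PHx, among them Cpt2, which remakes acyl-CoA inside mitochondria, at -1.29 ± 0.16, Slc25a20, the carnitine carrier, at -1.54 ± 0.21, and Acadvl, the very-long-chain dehydrogenase gene, at -1.12 ± 0.12 (SE; limma adjusted p = 0.00280, 0.00623 and 0.00114). Of 9 measured peroxisomal genes 2 passed higher and 2 lower after PHx in fl/fl livers, and 2 lower in △Hep livers. Eci2, an enoyl-CoA isomerase of peroxisomes, was lower in △Hep livers after PHx by 1.41 ± 0.18 (limma adjusted p = 0.00381).

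For the counts in this paragraph, the shares over all genes were 20.8% lower and 11.9% higher in fl/fl and 17.5% and 14.8% in △Hep livers. Of 15 glycerolipid synthesis genes 2 passed higher and 2 lower after PHx in fl/fl livers, and 2 higher and 4 lower in △Hep livers. Lpin2, a phosphatidate phosphatase, rose by 1.13 ± 0.22 in fl/fl livers, and Dgat2, which makes triglyceride, fell by 0.84 ± 0.13 in fl/fl and 1.00 ± 0.13 in △Hep livers. Thioesterases, which undo the synthetase reaction, passed higher in 3 and lower in 1 of 15 in fl/fl livers, with the mitochondrial thioesterase gene Acot2 up by 2.20 ± 0.39, and lower in 4 of 15 in △Hep livers. The cytosolic thioesterase gene Acot1 passed in opposite directions, at 0.70 ± 0.26 in fl/fl and -1.09 ± 0.26 in △Hep livers (limma adjusted p = 0.0467 and 0.00455). Its sham levels differed as well, with group means of 4.58 in fl/fl and 5.70 in △Hep livers that did not overlap by array. That genotype difference of 1.12 ± 0.26 did not pass (limma adjusted p = 0.337). Its fl/fl call was lost when array 1, 2 or 3 of sham fl/fl, array 1, 2 or 4 of PHx fl/fl or any array of sham △Hep was left out, and with array medians subtracted, quantile normalization or only the fl/fl groups fitted (adjusted p up to 0.147). Of 10 genes of fatty acid uptake and acyl-CoA binding 1 passed higher and 3 lower in fl/fl livers, and 1 higher and 6 lower in △Hep livers, where Fabp5, a fatty acid binding protein gene, fell by 1.36 ± 0.24. Acbd5, an acyl-CoA binding protein of peroxisomes, fell by 1.05 ± 0.26 and 1.12 ± 0.26. Of 8 genes of polyunsaturated phospholipid remodelling, the branch that Acsl4 feeds, 3 passed lower in each genotype, with Mboat7 at -0.34 ± 0.08 and -0.40 ± 0.08. Classical PPARα targets passed higher in 6 of 13 in fl/fl livers, and in △Hep livers 2 passed higher and 1 lower.

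By the rule of the 2 highest Pearson r over the 16 arrays among 9294 genes with a mean level of at least 4, the genes most like Acsm5 were Nit2 (0.991) and Epb41l4b (0.986). Those most like Acsm1 were Plg, the plasminogen gene (0.980), and Enpep (0.979), and those most like Acsm3 were Bbox1, of carnitine synthesis (0.969), and Etfa, of electron transfer from acyl-CoA dehydrogenases (0.951). For genes that differ between operations such r mostly record that step. Those most like Acsl4 were Naa50 (0.878) and Csnk2a1 (0.876), and those most like Acsl5 were Fabp1, the liver fatty acid binding protein gene (0.846), and Ctnnbl1 (0.821). After subtraction of the group means, the leading genes were Naa50 for Acsl4 (0.910), Tmx1 for Acsl5 (0.849), Sar1b for Acsm1 (0.888), Acad11 for Acsm3 (0.954) and Gm20319 for Acsm5 (0.970). The arrays share RNA, hybridisation and scaling across genes, and these values are descriptions with no test.

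In whole liver RNA, fewer cells of a type and less RNA per cell cannot be told apart. Hepatocyte markers passed lower after PHx in 3 of 12 in each genotype, with medians of -0.12 and -0.06. Over all genes 20.8% passed lower and 11.9% higher in fl/fl livers, and 17.5% and 14.8% in △Hep livers. Kupffer cell markers passed lower in 4 and higher in 1 of 12 in fl/fl and lower in 8 of 12 in △Hep livers, and their log2 summed level ran from 8.82 to 9.41 on sham fl/fl, 9.03 to 9.53 on sham △Hep, 8.60 to 8.99 on PHx fl/fl and 8.57 to 9.12 on PHx △Hep arrays. Endothelial markers passed lower in 5 and higher in 1 of 11 in fl/fl, and lower in 6 and higher in 1 in △Hep livers, with summed levels of 8.94 to 9.07 on sham and 8.64 to 9.28 on PHx arrays. Stellate cell markers passed lower in 3 of 10 in each genotype, with summed levels of 8.21 to 8.59 on sham and 7.68 to 8.25 on PHx arrays. Of 5 adipocyte markers 4 were measured, and all 4 had group means under 3. The part of cell make-up in the members' changes was not tested.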

How the data were processed

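Total RNA of mouse liver was hybridised to 16 Affymetrix arrays, 1 per sample. The deposited values are log2 levels per probe set made with RMA (background correction, normalization between arrays and summary over probes), per the submitters' processing notes. Neither its software nor the genome build is given in the sources used here. Low levels lie near background, where differences are understated, and the number of arrays limits the precision. Of 72688 probe sets, 30604 had 1 gene symbol in the platform annotation, 2146 had several and 39938 were not listed. Symbols were updated through Entrez identifiers to RefSeq (827 changed), and probe sets with several symbols named no gene, which left 30142 genes. Acsl1 and Acsl3 were not analysed here; the count of members and the chain class means, planned over 7 members, therefore rest on 5.

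All 16 arrays entered 1 model of 4 group means in limma 3.58.1 in R 4.3.3 (data.table version 1.17.8), which leaves 12 residual degrees of freedom, with default eBayes. P-values were adjusted by Benjamini-Hochberg over 30142 genes, with a threshold of 0.05, and SEs and 95% intervals come from that fit. Tables and figures were made with Python 3.11.15, numpy 2.4.6, pandas 2.3.3 and matplotlib 3.10.9. The fit was tested on simulated data with known changes. No pair of arrays held identical values (0 of 120), and r between arrays of a group was 0.986 to 0.997. Arrays are numbered in sample order, which pairs nothing. The 5 measured members are all named, as are the 13 measured classical PPARα targets and the 4 measured sex-linked genes. From each other list at most the 3 genes with the largest change among those that passed are named, besides Ppara, the neighbouring genes, Acss1 and Acss3. Acsbg3, Acsl6 and Baat are named as well. These 3 and Cyp4a14, Glyat, Glyatl3, Acsm2 and Acsm4 were chosen after their values were seen, as were the other targets and the sex-linked genes. The members, lists and tests were chosen with earlier results of these data known. Alternatives were cyclic loess, quantile normalization, subtraction of array medians, the mean of a gene's probe sets, a minimum mean of 3, trend and robust eBayes, array weights, fitting only the groups compared, protein-coding genes only, and leaving out each array.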

Additional observations from a re-analysis of the deposited data

Results flagged for a closer look

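In 28 sets of 4 arrays examined for an array that stood apart from the other 3 (by Dixon's ratio of the gap to the range, at its 95% critical value), 2 were found, and chance alone gives about 1 in 20. Acsl5 was lowest on PHx fl/fl array 2, at a log2 level of 7.92, while the other 3 arrays of the group lay at 8.22 to 8.26. Acsm3 was highest on sham fl/fl array 4, at 7.21, while the other 3 lay at 6.81 to 6.84. Without that array the Acsm3 call after PHx in fl/fl livers was lost (limma adjusted p = 0.0776).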

How the results depend on the processing

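Acsm1 and Acsm5 passed as lower after PHx in both genotypes under all 9 other settings and all 16 fits that left out an array, while the calls of Acsm3 were lost as given above. No member passed between the genotypes under any setting tried. With an array left out, 2 or 3 members passed after PHx in each genotype. No paired analysis was possible because the array numbers were given in sample order and pair nothing across groups.

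The counts over all genes moved more than those of the members. In fl/fl livers, 9868 genes passed after PHx (36.5% of them higher), against 15420 with array medians subtracted (14.8% higher), 15400 after quantile normalization (15.8%), 5962 with a minimum mean of 3 (19.4%) and 6574 among protein-coding genes (27.0%). In △Hep livers the count of 9734 (45.8% higher) became 15350 with array medians subtracted (13.9%) and 5888 with the minimum mean of 3 (21.0%), and 19.7% were higher after quantile normalization and 33.9% among protein-coding genes. The median over all genes shifted to -0.15 and -0.14 with array medians subtracted and to -0.14 and -0.10 after quantile normalization. The minimum mean and the protein-coding setting tested fewer genes, and the cause of the other moves was not tested. Between the genotypes after sham, 4 genes became 2 with the minimum mean, 24 with array weights, 38 with only the groups compared and 1 to 6 with an array left out. After PHx, 43 became 0 with only the groups compared and 14 (without △Hep array 2) to 127 (without fl/fl array 3) with an array left out. For the average, 66 became 100 with array weights and 35 (without sham △Hep array 1) to 120 (without PHx fl/fl array 3). The interaction gave 0 to 2 genes with an array left out.

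Values near 0 changed sign. After PHx in fl/fl livers, Acsl5 was 0.066 after cyclic loess and ran from -0.092 to 0.049 with an array left out. After PHx in △Hep livers, Acsl4 was 0.10 after cyclic loess and ran from -0.15 to 0.069 with an array left out. Acsl5 there was -0.14 with array medians subtracted, -0.22 after quantile normalization and -0.0018 as the mean of its probe sets, and it ran from -0.11 to 0.10. Between the genotypes after sham, Acsl4 ran from -0.075 to 0.052 and Acsm5 from -0.25 to 0.011 with an array left out. After PHx, Acsm1 ran from -0.16 to 0.14 and Acsm5 from -0.28 to 0.27, and Acsm5 was 0.0034 after quantile normalization. Averaged, Acsm1 ran from -0.017 to 0.13 and Acsm5 from -0.19 to 0.090. The difference of the PHx changes of Acsm3 was 0.022 after cyclic loess and 0.087 after quantile normalization. With an array left out it ran from -0.20 to 0.24, that of Acsl5 from -0.079 to 0.13, that of Acsm1 from -0.28 to 0.015 and that of Acsm5 from -0.19 to 0.36. The long-chain shift on PHx fl/fl arrays, 0.11, was 0.22 after cyclic loess, -0.0013 with array medians subtracted and -0.11 after quantile normalization. The cause of these changes was not tested.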
